A study of Danio rerio with 3 samples.

Results

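The eye field is the patch of anterior neural plate from which both optic vesicles arise, and 7 of its regulators were followed here: the retinal homeobox genes rx1, rx2 and rx3, the sine oculis homeobox genes six3a, six3b and six7, and mab21l2. They were chosen by name, by an exact match to the gene symbols of the authors' deposited table, and all 7 were present among its 35117 genes. Of these, mab21l2 encodes a Mab21-domain protein without a homeodomain, so the set is called the eye field genes below. RNA came from whole, untreated wild-type zebrafish embryos, freed of the chorion by hand, at 10 hours post fertilization (hpf), when gastrulation ends, and at 6 hpf, when it is beginning. The 10 hpf group held 2 libraries and the 6 hpf group held 1 library. The labels do not say how many embryos or clutches went into a library.

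In vertebrates the forebrain is patterned during gastrulation, when the anterior neural plate is shielded from posteriorising Wnt signals. Within it, overlapping transcription factors of the Otx, Six3, Rx, Pax6 and Lhx2 groups mark the cells that will form the eyes. Six3 proteins act largely as repressors, among others of Wnt genes, and protect anterior identity. Rx proteins are paired-type homeodomain factors, and zebrafish embryos without rx3 function do not form optic vesicles. The gene mab21l2 is expressed in the optic primordia and lies genetically downstream of rx3 in zebrafish. Because teleosts went through an extra genome duplication, several of these genes exist as duplicates.

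Expression was given as reads per kilobase of gene and scaled to the total number of mapped reads (RPKM), 1 value per gene for each stage, and the 10 hpf value covered both libraries. No spread between replicates could be estimated, so no test of the difference was made here, and the values below carry counting intervals only. Totals of reads were fitted so that low values of 5S rRNA genes, worth at most 5 reads, gave whole gene lengths for whole reads. This held in 87 of 93 cases at 10 hpf, for a total of 23243189 reads. At 6 hpf it held in 79 of 84 cases, for a total of 16991529 reads. The totals were fitted to these values, so these counts are no independent check of them. With these totals, the smallest whole numbers of reads that fit a gene's RPKM values were worked out for each gene. Exact 95% two-sided Poisson intervals on these reads cover counting error alone, and any larger multiple of the reads would narrow them. For a value listed at 0 the level of 3 reads is given as a separate, one-sided limit. As a check of the tissue, 10 markers of neural ectoderm, mesoderm, endoderm and enveloping layer lay between 10.3 and 2305 RPKM at 10 hpf and between 4.09 and 1274 RPKM at 6 hpf. A gene was said to be called where its empirical false discovery rate was under 0.05 in the authors' deposited table. With 1 library at 6 hpf, that rate cannot reflect spread between replicates at 6 hpf. The deposited log2 fold was not equal to the log2 ratio of the RPKM columns, and the reason was not tested. Deposited log2 fold minus log2 RPKM ratio had a median of −0.60 over 7009 genes above 5 RPKM at both stages. For six3b the values were 3.32 and 3.98. The gap was wider for rx3, at 8.23 and 10.5, and for six3a, at 3.62 and 5.64.

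By 10 hpf, 5 of the 7 eye field genes were called higher and 0 were called lower in the authors' deposited table, where 9.70% of all genes were called higher and 19.8% lower. The same 5 genes, rx3, six3b, six7, six3a and mab21l2, were at least 2-fold higher on the RPKM scale with a pseudocount of 1, a threshold passed by 11.0% of all genes. Neither rx1 nor rx2 was called. The 5 called genes were also the members that reached 1 RPKM at either stage. Of the 17494 genes that did so in the whole table, 2849 were called higher and 5754 lower. Summed over all 7 genes, the level was 169 RPKM at 10 hpf, against 6.89 RPKM at 6 hpf. The genes rx3, six3b and six7 made up 98.0% of the sum at 10 hpf and 96.2% of it at 6 hpf. In whole embryos a change in the number of cells that express a gene and a change in RNA per cell cannot be told apart.

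**Figure D1:**
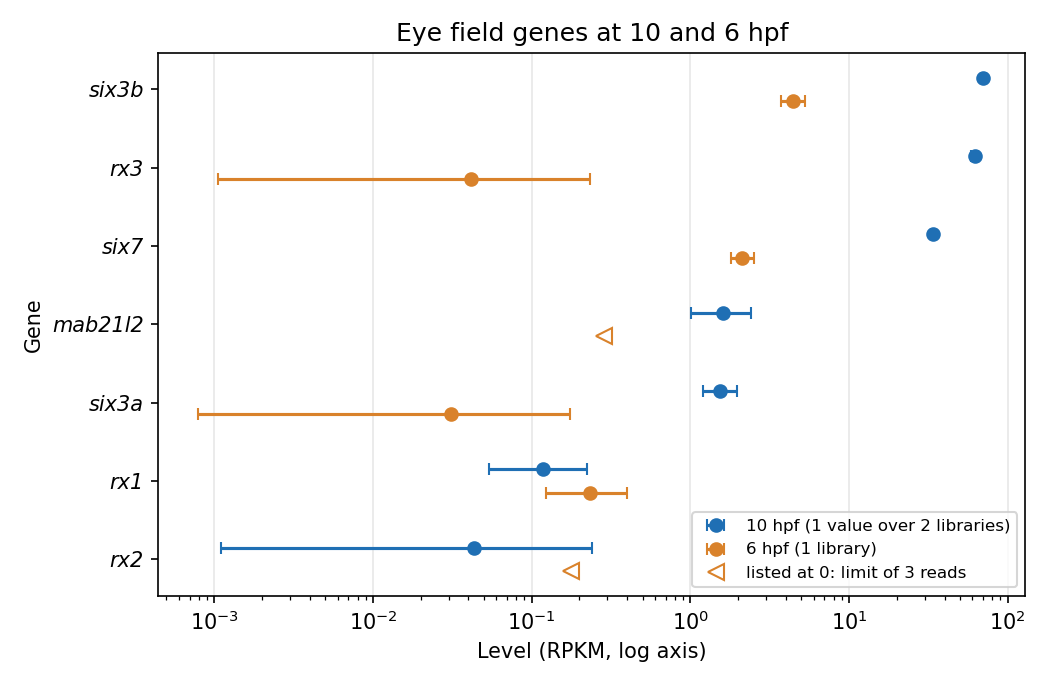
Level of each eye field gene in RPKM on a log axis at 10 hpf (blue, above) and 6 hpf (orange, below), with exact 95% Poisson intervals on the reads; open triangles mark the level of 3 reads for a gene listed at 0. The stages are far apart for six3b, rx3 and six7, whose 10 hpf levels were 70.2, 61.8 and 33.9 RPKM, whereas the intervals of rx1 overlap.

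Among the Rx genes, a single member accounted for nearly all of the signal. The level of rx3 (ENSDARG00000052893), the Rx gene needed for optic vesicle outgrowth in zebrafish, was 61.8 RPKM at 10 hpf (interval 59.2 to 64.6), against 0.0417 RPKM at 6 hpf (0.00106 to 0.232). These values fit a gene model of 1411 bases with 2028 reads at 10 hpf and 1 read at 6 hpf. The RPKM ratio was 1483, and with only 1 read in the earlier library its interval ran from 266 to 58585. The rise of rx3 was thus large on any reading of the interval, but its exact size was not measurable at this depth. The authors' deposited table gave rx3 a log2 fold of 8.23, a conservative log2 fold of 6.31 and a false discovery rate listed as 0. Among the 13516 genes below 0.1 RPKM at 6 hpf, rx3 had the 12th highest level at 10 hpf. The 11 genes above it were small nucleolar RNAs and the microRNA gene dre-mir-93. In such short genes 1 read stands for more RPKM than in rx3, so their 6 hpf levels are less closely limited.

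The other Rx genes, rx1 and rx2, are known from the developing retina, where they follow rx3 in time in zebrafish. Their levels stayed low at both stages. Of this pair only rx1 lay above the level of 3 reads, which for it was 0.0392 RPKM at 10 hpf and 0.0536 RPKM at 6 hpf. For rx1 (ENSDARG00000071684) the level was 0.118 RPKM at 10 hpf (0.0538 to 0.223), against 0.232 RPKM at 6 hpf (0.124 to 0.397), or 9 and 13 reads over 3293 bases. Its RPKM ratio was 0.506 with an interval of 0.191 to 1.28, which includes equality, so no difference was detectable at this depth. For rx2 (ENSDARG00000040321) the table listed 0.0433 RPKM at 10 hpf and 0 at 6 hpf. The 10 hpf value fits 1 read over 993 bases, or a multiple of both. For a gene of 993 bases the limit of 3 reads for the 0 at 6 hpf is 0.178 RPKM, and the two-sided interval reaches 0.219 RPKM. Both lie above the 10 hpf level, so no difference in rx2 was detectable at that length either. Both limits would be lower for a longer gene. At 10 hpf rx3 supplied 99.7% of the summed RPKM of the 3 Rx genes. Reads shared between these related genes cannot be followed in the table, and the levels of rx1 and rx2 are uncertain for that reason too.

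Both six3b and six7 were already detected at 6 hpf, at which rx3 gave 1 read. The level of six3b (ENSDARG00000054879), one of the Six3 duplicates of the anterior neural plate, was 70.2 RPKM at 10 hpf (67.7 to 72.8), against 4.45 RPKM at 6 hpf (3.73 to 5.27). Over 1759 bases this is 2870 reads at 10 hpf, against 133 reads at 6 hpf. The RPKM ratio of six3b was 15.8, with an interval of 13.3 to 18.9. Among the 6261 genes from 1 to below 5 RPKM at 6 hpf, six3b had the 11th highest level at 10 hpf, where the median of these genes was 2.61 RPKM. In the same range six7 ranked 35th.

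The gene six7 (ENSDARG00000070107) encodes a fish protein related to Six3 that acts together with six3b in early zebrafish eye and forebrain formation. Its level was 33.9 RPKM at 10 hpf (32.7 to 35.0), against 2.13 RPKM at 6 hpf (1.80 to 2.51), or 3213 and 148 reads over 4083 bases. The RPKM ratio of six7 was 15.9, with an interval of 13.5 to 18.8. The changes of six7 and six3b differed by a factor of 1.01 (0.786 to 1.29). Accordingly, six3b stood above six7 by a factor of 2.07 at 10 hpf (1.97 to 2.18) and by 2.09 at 6 hpf (1.64 to 2.65). Any difference between their changes was thus smaller than counting error could show. For six3b and six7 the authors' deposited table gave log2 folds of 3.32 and 3.35, with false discovery rates listed as 0.

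The duplicate six3a (ENSDARG00000058008) was far less abundant than six3b. Its level was 1.55 RPKM at 10 hpf (1.20 to 1.96), against 0.0312 RPKM at 6 hpf (0.000789 to 0.174). These values fit 68 reads at 10 hpf and 1 read at 6 hpf over 1889 bases. The authors' deposited table gave six3a a log2 fold of 3.62 and a false discovery rate of 0.000599. At 10 hpf six3b exceeded six3a by a factor of 45.3 (35.6 to 58.5), and six3b supplied 97.8% of the summed RPKM of the Six3 pair. The RPKM ratio of six3a was 49.7, but its interval of 8.63 to 1992 includes the ratio of six3b. The factor between the changes of six3a and six3b was 3.15 (0.537 to 127), so a difference in change between the duplicates was not detectable. Between rx3 and six3b the same factor was 94.0 (16.5 to 3741), and its whole interval lay above 1. How reads that match both Six3 duplicates were counted is not known, so the low values of six3a are uncertain.

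The gene mab21l2 (ENSDARG00000015266) stood at 1.60 RPKM at 10 hpf (1.01 to 2.4) and was listed at 0 at 6 hpf. The 10 hpf value fits 23 reads over 619 bases, or a multiple of both, and rests on that stage alone. For a gene of 619 bases the limit of 3 reads for the 0 at 6 hpf is 0.285 RPKM, and the two-sided interval reaches 0.351 RPKM. Both would be lower for a longer gene, and both lie below the interval at 10 hpf. In the authors' deposited table its log2 fold was 4.20, with a false discovery rate of 0.000599. At 10 hpf the levels of mab21l2 and six3a differed by a factor of 1.03 (0.614 to 1.68), so these neighbours in the order were not separated.

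Ordered by level at 10 hpf, the genes ran six3b, rx3, six7, mab21l2, six3a, rx1 and rx2. The step between six3b and rx3 was a factor of 1.14 (1.07 to 1.20), and that between rx3 and six7 a factor of 1.83 (1.73 to 1.93). Counting error separates the 3 leading genes, but variation between libraries was not measured and could change the order of six3b and rx3. At 6 hpf the order was six3b, six7, rx1, rx3 and six3a, with rx2 and mab21l2 listed at 0. With 1 read each, rx3 and six3a were not separated at 6 hpf. Their intervals also overlap that of rx1. Such overlap does not settle their places below rx1, and no interval of a ratio to rx1 was worked out. Among all genes, rx3 ranked 1127 by level at 10 hpf, against 22828 at 6 hpf. The rank of six3b was 991 at 10 hpf, against 9036 at 6 hpf, and that of six7 was 2149 at 10 hpf, against 11970 at 6 hpf.

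**Figure D2:**
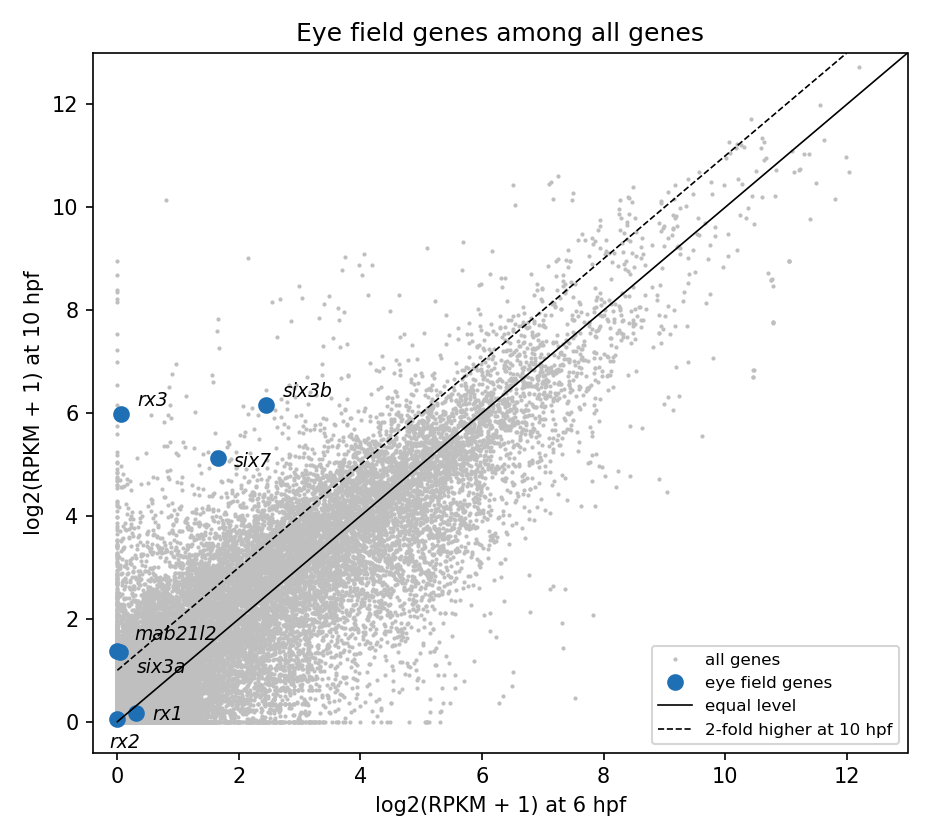
Level of every gene at 10 hpf (vertical) against 6 hpf (horizontal), both as log2(RPKM + 1), with the 7 eye field genes in blue, a solid line at equal level and a dashed line at 2-fold higher. The genes rx3, six3b and six7 lie far above the dashed line, with rx3 at the left edge (0.0417 RPKM at 6 hpf), and rx1 and rx2 lie near the origin.

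The genes most like each member were sought by distance in log2(RPKM + 1) over the values at both stages, and with only 2 values any gene of the same levels is alike. Genes whose symbol is a clone or locus placeholder were left out of this search and of the counts below. Nearest to six3b were the small nucleolar RNA gene SNORA77, at 65.4 RPKM at 10 hpf and 5.02 RPKM at 6 hpf, and olig4, at 61.1 RPKM at 10 hpf and 3.99 RPKM at 6 hpf. Nearest to rx3 were the short RNA genes SNORD66 (ENSDARG00000080942) and dre-mir-93, at 59.4 and 70.3 RPKM at 10 hpf and both listed at 0 at 6 hpf. A listed 0 is a looser limit for such short genes, since 1 read in them stands for more RPKM. Nearest to six7 were acmsd, at 36.9 RPKM at 10 hpf and 2.05 RPKM at 6 hpf, and the protocadherin gene pcdh19, at 36.7 RPKM at 10 hpf and 1.81 RPKM at 6 hpf. Few of the genes searched came this close: 5 lay within 0.5 of rx3, 11 within 0.5 of six3b and 17 within 0.5 of six7. By contrast 683 genes lay within 0.5 of mab21l2 and 790 within 0.5 of six3a. Their nearest genes were arfip2a and gpx7 for mab21l2, at distances of 0.0049 and 0.0094, and lyst and cttnbp2 for six3a, at 0.022 and 0.026. The pseudocount draws genes of low level together, and few genes reach the levels of rx3, six3b and six7. The counts within 0.5 thus depend on level and do not measure how unusual a member is.

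Other regulators of the eye field and optic vesicle were mixed. Of 23 genes in this list, 6 were called higher, 1 lower and 16 not called in the authors' deposited table. Over all genes the shares were 9.70% higher and 19.8% lower. The median log2 ratio of RPKM with a pseudocount of 1 was 0.27 for this list. The same median was 1.38 over the 7 eye field genes, 0.00 over all genes and 0.14 over genes at 1 RPKM or more. The LIM homeobox gene lhx2b, needed for optic vesicle growth, rose to 9.29 RPKM at 10 hpf, against 0.0640 RPKM at 6 hpf. The Pax6 duplicates pax6b and pax6a rose to 9.76 and 2.63 RPKM at 10 hpf, against 0.346 and 0.118 RPKM at 6 hpf. The anterior neural plate gene otx2 was already present, at 56.8 RPKM at 10 hpf and 7.46 RPKM at 6 hpf, which is a ratio of 7.60. The most abundant gene not called, the zinc finger gene zic2b, stood at 188 RPKM at 10 hpf and 194 RPKM at 6 hpf. The 1 lower call was lhx2a, the duplicate of the LIM gene, at 0.0181 RPKM at 10 hpf and 0.754 RPKM at 6 hpf.

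The rest of the sine oculis homeobox family includes genes of placodes and muscle. Of 10 further genes, 3 were called higher, 1 lower and 6 not called in the authors' deposited table. Over all genes the shares were 9.70% higher and 19.8% lower. The median log2 ratio of the 10 genes was 0.17 on the scale with a pseudocount of 1. The highest, six4b, rose to 26.3 RPKM at 10 hpf, against 3.69 RPKM at 6 hpf. The placode gene six1a stood at 1.12 RPKM at 10 hpf and was listed at 0 at 6 hpf, and six1b, at 0.635 and 0.0869 RPKM, was the remaining gene called higher. The gene six5 was not called, at 10.1 RPKM at 10 hpf and 8.95 RPKM at 6 hpf. The lower call of six9, at 0.0673 RPKM at 10 hpf and 0.414 RPKM at 6 hpf, was lost when the conservative folds were centred on the median gene. Over all genes 4718 of the 6946 lower calls were kept at that step. The closest relatives of Six3 outside the eye field set, six6a and six6b, were at 0.191 RPKM and a listed 0 at 10 hpf, and both were listed at 0 at 6 hpf.

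**Figure D3:**
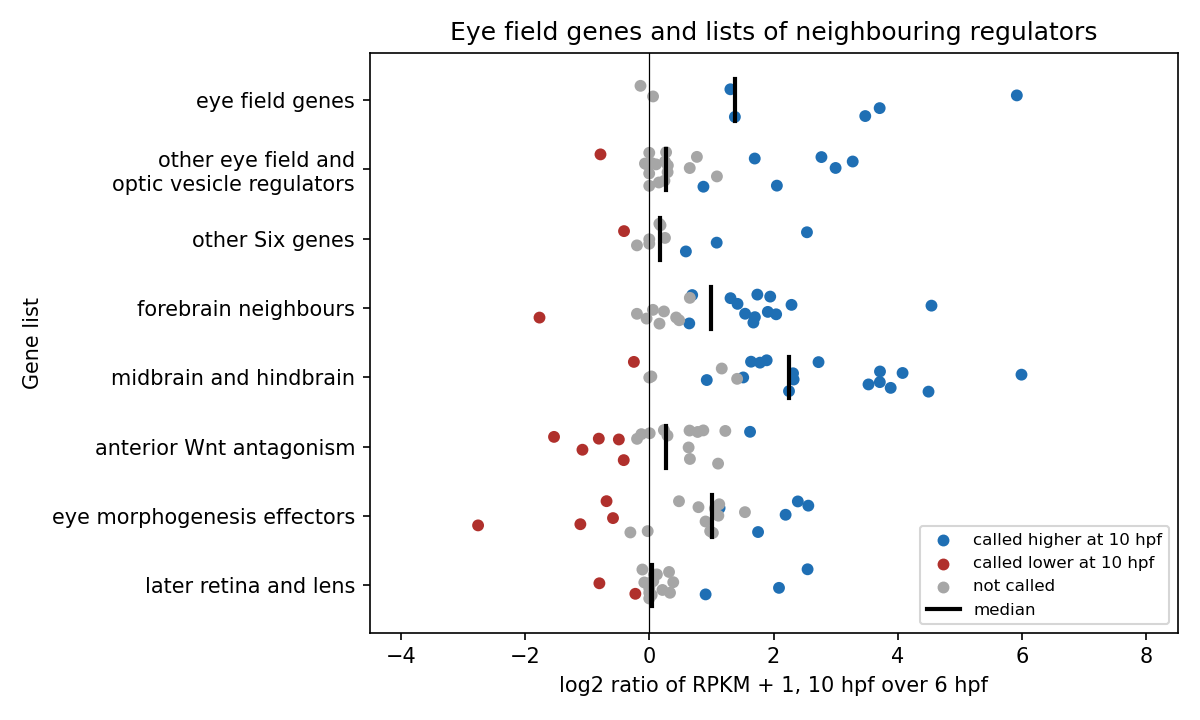
Log2 ratio of RPKM + 1, 10 hpf over 6 hpf, for each gene of 8 lists (points; blue called higher, red called lower and grey not called in the authors' deposited table), with the median of each list as a black bar. The median was 1.38 for the 7 eye field genes, 2.25 for midbrain and hindbrain genes and 0.04 for genes of the later retina and lens.

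Genes of the surrounding forebrain rose in part. The list held irx1b, and its duplicate irx1a was in the midbrain and hindbrain list. These lists thus do not divide sharply by region. Of 22 genes in the forebrain list, 13 were called higher, irx1b, irx3a and shha among them. A further 1 was called lower and 8 were not called in the authors' deposited table. The shares over all genes were 9.70% higher and 19.8% lower. The median log2 ratio was 1.0 with a pseudocount of 1, and the log2 folds of the authors' deposited table had a median of 2.24, against −0.11 over all genes. The forebrain zinc finger gene fezf2 reached 22.3 RPKM at 10 hpf and was listed at 0 at 6 hpf. The ventral forebrain genes nkx2.4b and nkx2.1 were at 3.89 and 3.12 RPKM at 10 hpf, both listed at 0 at 6 hpf. The telencephalic and neural crest gene dlx2a was at 1.98 RPKM at 10 hpf and 0.0236 RPKM at 6 hpf. The anterior repressor gene hesx1 was not called, at 9.42 RPKM at 10 hpf and 7.85 RPKM at 6 hpf. The LIM homeobox gene lhx5 fell to 6.63 RPKM at 10 hpf, against 24.9 RPKM at 6 hpf, and its call was kept after centring. Further back, 16 of 21 midbrain and hindbrain genes were called higher, 1 lower and 4 not called, beside the same shares over all genes. Their median log2 ratio was 2.25. The hindbrain gene hoxb1b rose to 123 RPKM at 10 hpf, against 0.953 RPKM at 6 hpf, and pax8 to 22.6 RPKM, against 0.0495 RPKM. The gene gbx2, which helps to set the midbrain-hindbrain boundary, and wnt1, a signal of that boundary, were at 10.5 and 5.61 RPKM at 10 hpf, both listed at 0 at 6 hpf. The gene irx7 was not called, at 125 RPKM at 10 hpf and 46.4 RPKM at 6 hpf. The lower call of en1b, at 0.0965 RPKM at 10 hpf and 0.302 RPKM at 6 hpf, was lost after centring.

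Of 18 genes of anterior Wnt antagonism, 1 was called higher, 5 lower and 12 not called in the authors' deposited table, where 9.70% of all genes were called higher and 19.8% lower. After centring 3 of the lower calls were kept, beside 4718 of the 6946 lower calls over all genes. The median log2 ratio of the 18 genes was 0.26. With so few genes, these counts are not set apart from the shares over all genes. The Tcf repressor gene tcf7l1a, which is required for head and eye formation in zebrafish, fell to 22.3 RPKM at 10 hpf, against 66.5 RPKM at 6 hpf. Its duplicate tcf7l1b fell to 9.86 RPKM at 10 hpf, against 21.9 RPKM at 6 hpf. The Dickkopf family gene dkk3b was at 1.04 RPKM at 10 hpf and 2.58 RPKM at 6 hpf, and its lower call was also kept. Those of notum1a, at 21.5 and 30.6 RPKM, and apc, at 13.2 and 17.9 RPKM, were lost at that step. The higher call was that of the corepressor gene tle3a, at 40.7 RPKM at 10 hpf and 12.5 RPKM at 6 hpf. The secreted antagonist gene sfrp1a was not called, at 58.3 RPKM at 10 hpf and 67.0 RPKM at 6 hpf.

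Among 20 genes of cell adhesion, guidance and movement linked to eye morphogenesis, 5 were called higher, 4 lower and 11 not called in the authors' deposited table. Over all genes the shares were 9.70% higher and 19.8% lower, so the lower calls of this list were near that share. All 20 genes of the list, however, reached 1 RPKM at either stage. Of the 17494 genes that reached it, 2849 were called higher and 5754 lower. The 4 lower calls are too few to be set apart from either share. The median log2 ratio was 1.0 with a pseudocount of 1, but the log2 folds of the authors' deposited table had a median of 0.46, below that of the forebrain list. Centring kept 2 of the 4 lower calls, beside 4718 of 6946 over all genes, and so few calls are not set apart from that share. The cell adhesion gene alcama rose to 9.25 RPKM at 10 hpf, against 0.738 RPKM at 6 hpf, and the Eph receptor gene epha4a to 21.0 RPKM, against 3.20 RPKM. The chemokine receptor gene cxcr4b fell to 11.6 RPKM at 10 hpf, against 84.1 RPKM at 6 hpf, and the noncanonical Wnt gene wnt11 to 22.7 RPKM, against 50.2 RPKM. The adhesion gene alcamb was not called, at 388 RPKM at 10 hpf and 278 RPKM at 6 hpf.

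Genes of the differentiating retina, pigment epithelium and lens were mostly near 0. Only 2 of 21 reached 1 RPKM at either stage, and 14 were listed at 0 at 6 hpf and 6 at 10 hpf. Of the 21, 3 were called higher, 2 lower and 16 not called in the authors' deposited table, and the median log2 ratio was 0.04. With so few genes, these counts are not set apart from the shares over all genes, 9.70% higher and 19.8% lower. The genes above 1 RPKM were isl1, at 3.25 RPKM at 10 hpf and listed at 0 at 6 hpf, and pitx3, at 5.76 RPKM at 10 hpf and 0.156 RPKM at 6 hpf. Both are also known from early tissues other than the eye, isl1 from sensory and motor neurons and pitx3 from placodal ectoderm. The third gene called higher was neurod4, at 0.875 RPKM at 10 hpf and listed at 0 at 6 hpf. The lower calls were pou4f2, at 0.0140 RPKM at 10 hpf and 0.769 RPKM at 6 hpf, and the pigment gene dct, listed at 0 at 10 hpf and at 0.168 RPKM at 6 hpf. The lens and retina gene prox1a was not called, at 0.609 RPKM at 10 hpf and 0.232 RPKM at 6 hpf.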

How the data were processed

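Total RNA of whole embryos was sequenced in 3 libraries, per the labels. The submitters' processing notes name TopHat2 2.1.1 and the build GRCz10. Nothing used here names the read counter, the annotation or any filter. RPKM values were deposited by the authors, 1 per gene and stage. A log2 fold of 10 hpf over 6 hpf and a conservative log2 fold (GFOLD, setting 0.01) stand beside them, per the file headers. The authors deposited an empirical false discovery rate too, treated here as a q-value.

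The eye field genes and the 7 further lists were chosen with earlier results of these data known. List genes were matched by symbol, or by current symbol, and those named were up to 4 called genes per list with the largest deposited log2 fold at 1 RPKM or more and the 1 gene not called with the highest level. Genes named to account for counts of 5 or fewer, and six6a, six6b, irx1a, irx1b, irx3a and shha, were chosen after their values were seen. The ranges of 6 hpf levels used for ranks were also chosen after the values were seen.

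Totals of reads were fitted to values of 5S rRNA genes worth at most 5 reads (90 of all 105 values above 0 at 10 hpf and 93 of all 191 at 6 hpf, larger values included, gave whole lengths within 0.01 bases). Neither the totals nor the reads per gene were deposited, and the fit does not show how the 2 libraries were combined. In a test on simulated data for this comparison, reads of 166 of 200 genes were recovered exactly. That they were at most the true number in 200 follows from taking the smallest reads that fit. Ratio intervals are exact conditional binomial intervals at 95%, and factors between changes have exact conditional intervals of the odds ratio. Python 3.11.15, pandas 2.3.3, numpy 2.4.6 and scipy 1.17.1 were used. Centring subtracted −0.50, the median of the deposited log2 fold over 10692 genes at 5 RPKM or more, from the conservative fold. It could remove lower calls, but could not remove higher calls or add calls. For log2 RPKM ratios with a pseudocount of 1, centring instead subtracted 0.089, their median over the same genes.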

Additional observations from a re-analysis of the deposited data

How the results depend on the processing

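The count of eye field genes called higher in the authors' deposited table was 5 with a false discovery rate under 0.01 and with a minimum of 1 RPKM. It was also 5 with an absolute log2 fold of at least 1. With a minimum of 5 RPKM it was 3, since six3a and mab21l2 lie below that level. The count stayed at 5 after centring, which raised the conservative folds and so could not remove a higher call. The count at least 2-fold higher in RPKM was 5 with a pseudocount of 0.1 and after centring, and 3 with a pseudocount of 5. Of the 17494 genes at 1 RPKM or more in the whole table, 2849 were called higher. Shares over all genes were not worked out at the other alternative settings, so those counts describe the eye field genes alone. The median log2 ratio of the 7 genes (1.38) was 3.93 with a pseudocount of 0.1, 0.40 with a pseudocount of 5, 3.48 over genes at 1 RPKM or more, 1.29 after centring and 3.35 as the log2 fold of the authors' deposited table. The 5 genes called higher lay above 0 under each of these measures, while rx2, which was not called, turned from 0.06 to −0.03 after centring. No paired analysis was possible because the table holds 1 value per stage and the groups share fewer than 2 replicate numbers. For the same reason leaving out a replicate was not run. Depth limits the 6 hpf values of rx3, six3a, rx2 and mab21l2, which rest on 0 or 1 read.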

Other observations

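Values are given here for the genes that lie next to the eye field genes on the chromosomes. Flanking protein-coding genes were taken by order from the RefSeq annotation of GRCz12tu, a later build than the one behind the values, and matched by symbol. Of the 14 adjacent genes, all matched, 0 were called higher, 2 lower and 12 not called in the authors' deposited table, where 9.70% of all genes were called higher and 19.8% lower. So few genes are not set apart from these shares. Their median log2 ratio with a pseudocount of 1 was 0.12. Beside rx3 lie cplx4a, at 0.291 RPKM at 10 hpf, and grp, a gastrin-releasing peptide gene, at 0.286 RPKM at 10 hpf, and both were listed at 0 at 6 hpf. Beside rx2 lies cplx4c, a related complexin gene, which fell to 0.155 RPKM at 10 hpf, against 3.28 RPKM at 6 hpf. The gene matk, beside rx1, fell to 0.0975 RPKM at 10 hpf, against 0.711 RPKM at 6 hpf.

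Each Six3 duplicate has a Six2 gene as a neighbour, and these were nearly silent. The gene six2b, beside six3b, was listed at 0 at both stages, and six2a, beside six3a, was at 0.134 RPKM at 10 hpf and listed at 0 at 6 hpf. On the other side of six3b, the phosphatase gene ppm1bb was not called, at 23.7 RPKM at 10 hpf and 17.2 RPKM at 6 hpf. The flanking genes of mab21l2 were lrba, at 6.32 RPKM at 10 hpf and 6.04 RPKM at 6 hpf, and the ribosomal protein gene rps3a, at 625 RPKM at 10 hpf and 226 RPKM at 6 hpf, neither of them called. Beside six7 were zgc:101810, at 0.0202 RPKM at 10 hpf and listed at 0 at 6 hpf, and b4gat1, at 4.69 RPKM at 10 hpf and 5.47 RPKM at 6 hpf. With the next gene on each side included, 23 of 28 positions were matched, and 2 genes were called higher, 4 lower and 17 not called. These counts are not set apart from the shares over all genes, 9.70% higher and 19.8% lower. The higher calls were znf532 near rx3, at 2.11 RPKM at 10 hpf and 0.536 RPKM at 6 hpf, and the axon guidance gene slit2 near mab21l2, at 4.28 RPKM at 10 hpf and 0.367 RPKM at 6 hpf. These genes were chosen by position after the values of the eye field genes had been seen.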
